A study of Mus musculus with 12 samples.

Results

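Ephrins, Eph receptors, semaphorins, plexins, neuropilins, Slits, Robos, netrins, Dcc and the Unc5 receptors are the cell-surface and secreted molecules that steer growing axons. Protein-coding genes of these families, chosen by their symbols, were followed in 4 groups of mouse cells, 66 of the 45706 genes counted. They comprise 5 class A ephrins, 3 class B ephrins, 8 class A and 5 class B Eph receptors, 20 semaphorins, 11 plexins and neuropilins, 3 Slits, 4 Robos and 7 genes of the netrin, Dcc and Unc5 group. The choice does not hold every gene of the families: *Ntn5* was placed with the other cues described last, and *Ntn3* was not analysed here.

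RNA was sequenced from 12 libraries, 3 in each group, of cells derived from mouse embryonic stem cells of the strain C57BL/6, and the series' design states that the samples of a group were made on different days. NPC are Sox1-negative glial progenitors that were not sorted. NPC+ are glial progenitors in which dCas9-VP64, a nuclease-dead Cas9 fused to a transcriptional activator, was directed to the *Sox1* promoter and which were sorted for Sox1, read through a GFP knocked into 1 *Sox1* allele. NSC are unsorted neuroepithelial cells, and the libraries labelled NR, called NR only after that label, are neuroepithelial cells of neural rosettes sorted for GFP. The study derived its NPC, NSC and NR cells alike from embryonic stem cells with this *Sox1* reporter, so it is not particular to NPC+. The study describes the lines that carry dCas9-VP64 as grown from single cells, and which line gave which NPC or NPC+ library is not stated in the sources used here. Sorting, the activator and the group therefore cannot be told apart between NPC and NPC+, nor can sorting and culture stage between NSC and NR. In bulk RNA, fewer cells of a type and less RNA per cell cannot be told apart either.

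Guidance cues act in ligand and receptor pairs that attract or repel a cell's leading edge through the actin cytoskeleton. Class A ephrins are tethered to the membrane by a lipid anchor and class B ephrins span it, and both bind Eph receptor tyrosine kinases on the neighbouring cell, with signals running in both directions. Secreted class 3 semaphorins bind neuropilins, which recruit class A plexins, whereas most membrane-bound semaphorins bind plexins directly. Slits are secreted repellents read by Robos, and netrin-1 attracts through Dcc and repels through Unc5 receptors. The same molecules also mark boundaries between progenitor domains in the neural tube and guide the migration of glial and neural crest cells.

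Total counts were 4939268 to 18351483 in NPC, 3407066 to 6315574 in NPC+, 29046205 to 43095688 in NSC and 16707006 to 34594885 in the libraries labelled NR, so low members were measured with more error in NPC and NPC+. The members took 0.161 to 0.196% of the counts in NPC, 0.168 to 0.175% in NPC+, 0.289 to 0.378% in NSC and 0.167 to 0.244% in NR. *Sox1*, the targeted gene, was at 4.83, 6.00 and 5.43 CPM (counts scaled to equal library size) in NPC, 20.3, 20.9 and 21.7 in NPC+, 48.6, 64.9 and 51.8 in NSC and 4.62, 20.0 and 19.2 in NR. It was higher in NPC+ than in NPC by a log2 fold change of 1.97 (SE 0.43, adjusted p = 0.00221), where SE is the standard error of the log2 fold change. The first library labelled NR was at the level of NPC although the labels give it as sorted for GFP, and all 3 were below NSC, so the counts of NR are also given without that library. The summed level of 5 markers of pluripotent cells was 1326 to 2505 CPM in NR, 43.2 to 130 in NSC and 6.44 to 9.01 in NPC and NPC+. That of 6 markers of mesenchyme and neural crest was 619 to 4531 CPM in NR, 550 to 1736 in NSC and 27.8 to 31.8 in NPC and NPC+. In NSC and NR most of it was *Col1a1* and *Col1a2*, with *Col1a1* at 1084, 381 and 1080 CPM in NSC and 2985, 413 and 2125 in NR. *Sox10*, a defining marker of neural crest, was at 0 in all 6 libraries of NPC and NPC+. It was also low elsewhere, at 0.447, 0.311 and 0.396 CPM in NSC and 0.554, 0.516 and 0.618 in NR. Markers of neuroepithelium summed to 1650 to 1699 CPM in NSC and 438 to 942 in NR, against 469 to 546 in NPC and NPC+. The like sums of NPC and NPC+ hide opposite changes. Of the 6 markers 3 were higher and 2 lower in NPC+ than in NPC, 5 and 1 in NSC and 4 and 2 in NR. From NPC to NPC+ the mean of *Sox2* went from 284 to 81.5 CPM and that of *Pax6* from 58.1 to 33.8, whereas *Nes* went from 90.2 to 227 and *Cdh2* from 68.2 to 148. Of 7 markers of neurons 5 were higher and 1 was lower in NSC and in NR than in NPC, with median log2 fold changes of 3.98 and 3.31, and in NPC+ 1 was higher and 0 were lower. Their sum was 480.8 to 509 CPM in NPC, 426 to 441 in NPC+, 589 to 742 in NSC and 331 to 503 in NR, most of it *Map2* in NPC and NPC+, whereas *Tubb3* was at 6.09, 4.60 and 5.43 CPM in NPC, 262, 235 and 263 in NSC and 101, 143 and 167 in NR. The sum of 5 astroglial markers was 2493 to 2796 CPM in NPC and 1174 to 1230 in NPC+, and 42.1 to 62.8 in NSC and NR, and nearly all of it was *Slc1a3* alone, at 2774, 2571 and 2468 CPM in NPC and 1192, 1205 and 1147 in NPC+. Of the other 4 astroglial markers *Aqp4*, at under 1 CPM in both, was higher in NPC+ and 3 did not pass. The sum of 6 markers of the oligodendrocyte lineage, mostly *Olig1* and *Olig2*, was 2404 to 2533 CPM in NPC, 1628 to 1761 in NPC+ and 48.4 to 84.3 in NSC and NR. The part that these differences in cell composition have in the results was not tested.

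Of the 66 members 64 had enough counts to be tested, and all 64 differed among the 4 groups at an adjusted p under 0.1, as did 92.5% of all genes tested. *Epha6*, a class A Eph receptor, had no count in NPC or NPC+, 15, 2 and 8 counts in NSC and 3, 2 and 8 in NR, and *Sema3g*, a secreted semaphorin, had at most 11 counts in any library. Neither was tested. The heat map of all members orders the families by ligand and receptor.

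**Figure D1:**
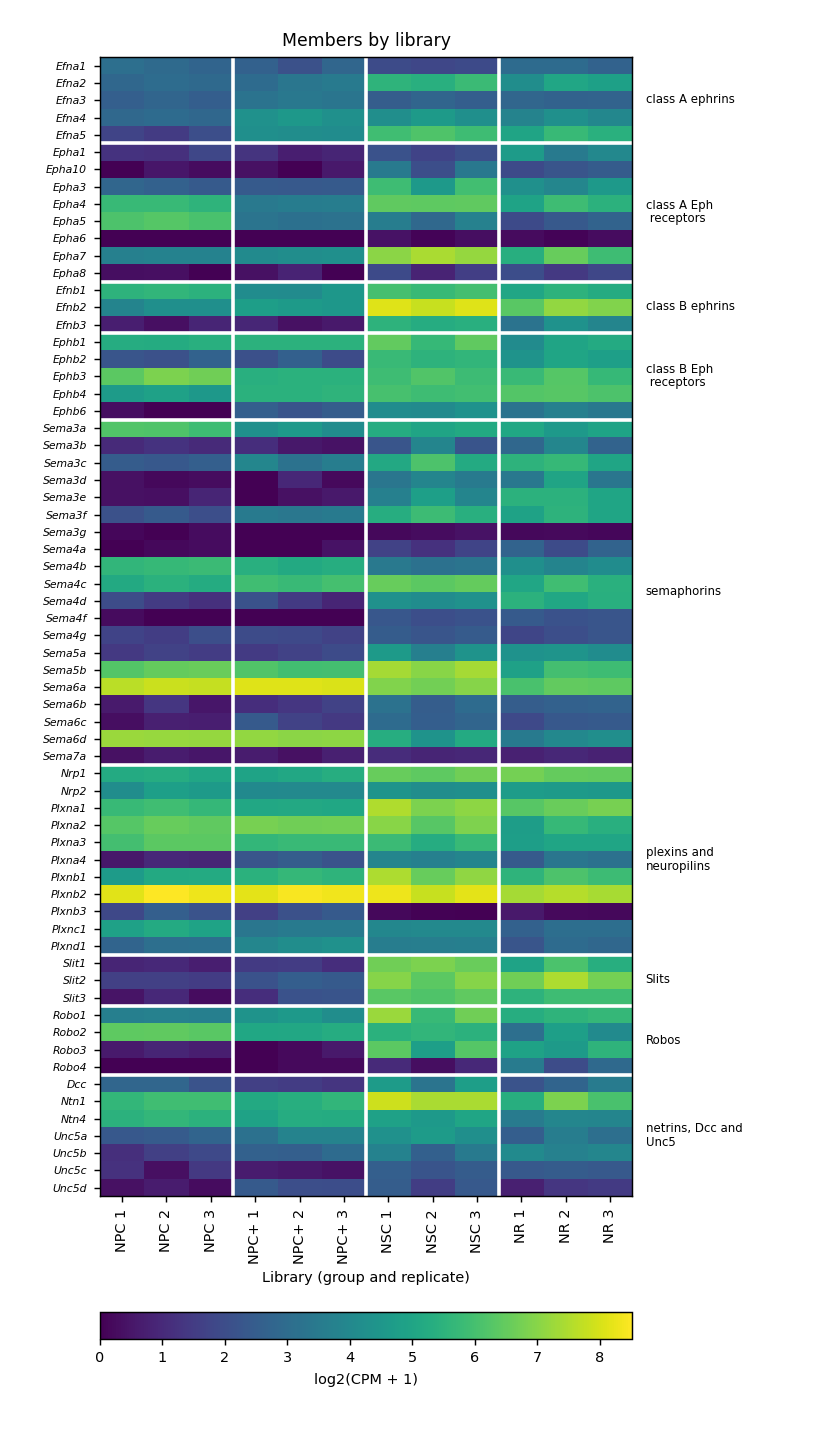
Level of each of the 66 members as log2(CPM + 1) in the 12 libraries, with libraries in columns by group and replicate and members in rows by family. *Plxnb2*, *Sema6a* and *Efnb2* reach the highest levels, the 3 Slits and *Efnb3* are dark in NPC and NPC+ and bright in NSC and NR, and *Epha6* and *Sema3g* are near 0 throughout.

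Levels of different genes were compared as CPM per kilobase of exon. Over the 12 libraries the highest mean was that of *Plxnb2* at 35.2, a plexin that binds class 4 semaphorins, ahead of *Sema6a* at 19.3, *Efnb2* at 15.02 and *Ntn1* at 14.4 CPM per kb. Within the families the highest members per kb over the 12 libraries were *Efna2* and *Efna4* among class A ephrins, *Epha7* and *Epha4* among class A receptors, *Ephb4* and *Ephb3* among class B receptors, *Slit1* and *Slit3* among Slits, and *Robo3* and *Robo1* among Robos. This order differed between groups, and in NPC and NPC+ *Robo2* was the highest Robo, at 4.87 ± 0.147 and 2.04 ± 0.149 CPM per kb, with *Robo3* at 0.0974 ± 0.0225 and 0.0320 ± 0.0374. It also rests on exon length, and with the longest transcript *Robo3* came after *Robo1* and *Robo2*, and *Ephb3* before *Ephb4*. Semaphorins and plexins with neuropilins held the largest sums in each group. Summed semaphorins were at 71.1, 78.4 and 75.96 CPM per kb in NPC, 82.2, 75.97 and 78.2 in NPC+, 89.5, 87.0 and 88.8 in NSC and 54.6, 73.2 and 59.9 in NR. Those sums overlapped between NPC and NPC+, and between NPC and NR.

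The Slits differed most in proportion, with 0.282, 0.408 and 0.214 CPM per kb in NPC, 0.621, 1.08 and 0.972 in NPC+, 35.4, 34.2 and 34.7 in NSC and 16.4, 27.8 and 20.3 in NR. No library of one group overlapped with another in that order, which ran from NPC through NPC+ and NR to NSC. Between NPC and NPC+ the sums of class A ephrins and class A receptors differed in opposite directions. The ephrins stood at 13.5 ± 0.692 CPM per kb in NPC and 27.1 ± 1.31 in NPC+, and the receptors at 12.8 ± 0.634 and 4.40 ± 0.0992 (mean ± SD, n = 3). NSC had the highest mean in all 9 families. The sums are descriptions without a test, and other exon lengths change their size, as given at the end.

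**Figure D2:**
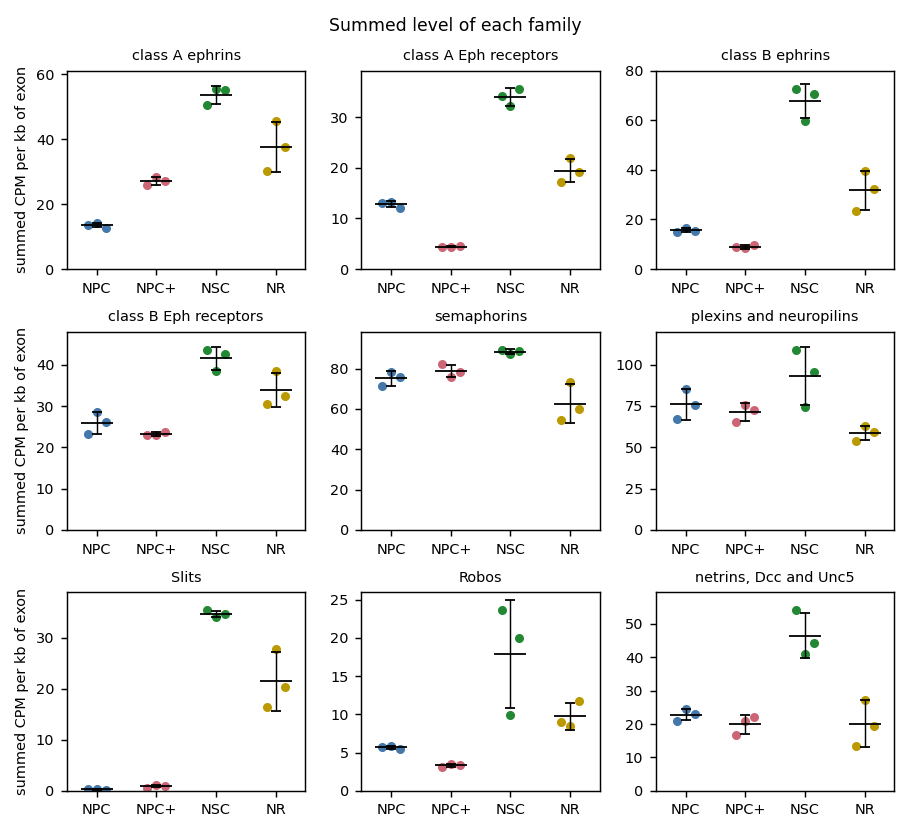
Summed CPM per kb of exon of each of the 9 families, with 1 point per library, a horizontal bar for the mean of 3 libraries and error bars of 1 SD, each panel starting at 0. Slits are near 0 in NPC and NPC+, class A receptors are lowest in NPC+, and the NSC points lie above those of NPC in all panels except plexins and neuropilins, where 1 NSC library lies among them.

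The first comparison asks which guidance genes differ once *Sox1* is activated in glial progenitors. In NPC+ 21 of the 64 members tested were higher and 14 were lower than in NPC, 32.8% and 21.9%, where 21.6% of all genes tested were higher and 22.7% were lower. The median log2 fold change was 0.24 over the members and 0.00 over all genes tested. All values of NPC+ lay above all values of NPC for 24 members and below for 18, against 25.7% and 27.1% of all genes. The largest rises were those of *Ephb6*, *Unc5d*, *Efna5* and *Slit3*, and the largest falls those of *Epha5*, *Epha4*, *Sema3a* and *Plxnc1*.

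Class A ephrins held rises and class A Eph receptors falls, each in some members only. Of the 5 class A ephrins 3 were higher and none was lower, and of the 7 class A receptors tested none was higher and 2 were lower. With 2 of 7 the receptors lay near the share of all genes. *Efna5*, a class A ephrin known as a repellent for axons that carry EphA receptors (chr17:62604184-62881317, - strand, build GRCm38), was at 2.39, 1.81 and 3.13 CPM in NPC and 17.9, 17.0 and 16.7 in NPC+. The NPC+ libraries were close to each other and all far above NPC. The log2 fold change was 2.85 (SE 0.25, adjusted p = 1.09e-06).

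*Epha5* (chr5:84054761-84417382, - strand), a receptor of class A ephrins, was at 69.0, 76.3 and 65.9 CPM in NPC and 8.69, 7.85 and 8.34 in NPC+. *Epha4* (chr1:77367185-77515088, - strand), which binds ephrins of both classes, was at 52.8, 51.9 and 45.9 CPM and 9.84, 10.8 and 11.3 CPM. For both receptors every NPC+ library was below every NPC library. The log2 fold changes were -3.09 (SE 0.26, adjusted p = 9.94e-07) for *Epha5* and -2.23 (SE 0.21, adjusted p = 2.29e-06) for *Epha4*. These were the highest class A receptors of NPC per kb of exon, at 6.23 ± 0.463 CPM per kb for *Epha4* and 4.21 ± 0.318 for *Epha5*. The other class A receptors tested did not pass, among them *Epha7* at 12.5 ± 0.285 CPM in NPC and 17.0 ± 1.05 in NPC+ (log2 fold change 0.46, adjusted p = 0.223). *Epha7* passed as higher in the fit of NPC and NPC+ alone (adjusted p = 0.00233) and with no filter on low counts (adjusted p = 0.0201).

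*Ephb6* (chr6:41605482-41620509, + strand), a class B receptor that lacks kinase activity, had 4, 0 and 0 counts in the NPC libraries and 17, 23 and 28 in NPC+, or 0.239, 0 and 0 CPM and 4.92, 3.61 and 4.67 CPM. It was close to absent in NPC at this depth and present in each NPC+ library, with a log2 fold change of 4.93 (SE 0.48, adjusted p = 3.05e-06). The fitted size rests on the 4 counts of 1 NPC library.

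The bases just before the annotated start of these 4 genes, those with the largest rises and falls among ephrins and Eph receptors, are shown so that the promoters can be compared. They were taken from RefSeq (GRCm38.p6) as the 250 bases before the start, each in the direction of its gene, with CpG dinucleotides in capitals. RefSeq puts the start of *Ephb6* downstream of that in GENCODE, so the end of its window lies inside the gene as given above.
Efna5 (chr17:62881318-62881567, - strand): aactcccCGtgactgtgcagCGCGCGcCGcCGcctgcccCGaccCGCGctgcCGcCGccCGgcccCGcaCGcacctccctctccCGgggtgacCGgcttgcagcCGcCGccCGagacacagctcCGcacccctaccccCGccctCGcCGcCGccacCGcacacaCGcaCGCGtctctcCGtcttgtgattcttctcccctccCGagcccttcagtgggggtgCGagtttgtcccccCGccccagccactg
Ephb6 (chr6:41605261-41605510, + strand): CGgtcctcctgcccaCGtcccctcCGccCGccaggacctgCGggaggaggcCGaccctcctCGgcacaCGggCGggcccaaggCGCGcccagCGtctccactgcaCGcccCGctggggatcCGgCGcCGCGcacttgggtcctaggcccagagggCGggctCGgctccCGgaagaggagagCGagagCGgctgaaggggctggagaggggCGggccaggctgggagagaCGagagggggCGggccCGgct
Epha5 (chr5:84417383-84417632, - strand): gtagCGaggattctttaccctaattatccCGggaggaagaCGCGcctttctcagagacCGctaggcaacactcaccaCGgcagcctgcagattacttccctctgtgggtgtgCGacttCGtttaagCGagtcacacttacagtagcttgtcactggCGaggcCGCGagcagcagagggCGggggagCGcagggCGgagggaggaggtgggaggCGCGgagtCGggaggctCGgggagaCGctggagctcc
Epha4 (chr1:77515089-77515338, - strand): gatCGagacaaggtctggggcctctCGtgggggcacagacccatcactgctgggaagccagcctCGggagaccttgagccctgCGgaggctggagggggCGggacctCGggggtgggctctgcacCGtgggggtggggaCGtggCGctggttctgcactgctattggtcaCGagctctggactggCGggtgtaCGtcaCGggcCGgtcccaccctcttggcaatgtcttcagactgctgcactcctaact

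Both genes that rose had more CpGs in this window than both that fell, with 32 in *Efna5* and 27 in *Ephb6* against 20 in *Epha5* and 14 in *Epha4*. The GC content was 74.8, 76.8, 62.4 and 66.0% in the same order. With 4 sequences this is a description only. SOX proteins bind 6-letter sites, searched here as ACAAAG or its variant ACAATG and as TCAAAG or its variant TCAATG. These 4 forms cannot start at the same base of a strand, and both strands were searched. None of the 4 windows held one of these forms. Of the 66 members 56 had a promoter in the RefSeq table, and 16 of them (28.6%) held a form, against 39.9% of the 27025 genes of that RefSeq table. Unlike the members, those 27025 were not limited to counted or protein-coding genes, so the sets are unlike. The members' promoters were richer in CpG than this wider set: 33 of 56 (58.9%) had a GC content over 50% with a ratio of observed to expected CpGs over 0.6, against 31.2% of the 27025. Their median GC content was 64.8% against 52.0%. A match or its absence describes these letters only.

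The other class A ephrins that rose in NPC+ were *Efna4*, from 6.39, 6.84 and 6.26 to 18.8, 22.5 and 18.2 CPM, and *Efna3*, from 4.95, 5.86 and 4.80 to 8.40, 9.74 and 8.84 CPM. In both the groups did not overlap, and the log2 fold changes were 1.61 (SE 0.19, adjusted p = 1.99e-05) and 0.79 (SE 0.19, adjusted p = 0.00449). *Efna1*, *Efna3* and *Efna4* are neighbours on chromosome 3. Genes expressed within 5 Mb of them had median log2 fold changes of 0.79, 0.78 and 0.77, against -0.05 for all genes expressed, so that *Efna3* rose by about as much as the genes around it, *Efna4* by more, and *Efna1*, at 6.68 ± 1.03 CPM in NPC and 4.84 ± 1.39 in NPC+, did not pass (log2 fold change -0.50, adjusted p = 0.138). *Efna1* passed as lower in the fit of NPC and NPC+ alone (adjusted p = 0.0648) and without NPC+ replicate 3 (adjusted p = 0.0726), and *Efna2* as higher in the fit of the 2 groups (adjusted p = 0.0188) and at equal depth (adjusted p = 0.0827). The part of this regional shift in their values was not tested. *Efna3* shares 344 of its 2434 exon bases and *Efna4* 168 of its 1599 with an overlapping gene, and since the strand setting of the counting is not stated their reads are uncertain.

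Among class B ephrins *Efnb1* fell and *Efnb2* rose. *Efnb1*, a transmembrane ephrin, was at 44.0, 47.6 and 43.6 CPM in NPC and 16.5, 16.3 and 21.5 in NPC+, and its receptor *Ephb3* at 81.5, 112 and 101 and 40.8, 41.9 and 42.7 CPM. In neither gene did the groups overlap, and the log2 fold changes were -1.31 (SE 0.15, adjusted p = 1.50e-05) and -1.22 (SE 0.17, adjusted p = 6.23e-05). Genes within 5 Mb of *Ephb3* on chromosome 16 had a median of -0.34. *Ephb4*, a receptor that pairs with ephrin-B2, rose from 24.3, 28.3 and 22.1 to 42.0, 42.4 and 45.4 CPM with non-overlapping groups (log2 fold change 0.79 (SE 0.11, adjusted p = 5.36e-05)). *Efnb2* itself went from 13.4, 18.1 and 17.9 to 26.3, 23.7 and 22.0 CPM, also without overlap, with a log2 fold change of 0.57 (SE 0.22, adjusted p = 0.0540). That call was lost without NPC replicate 1 or NPC+ replicate 1 or 2 (adjusted p = 0.118 to 0.213). *Ephb2*, the classical partner of *Efnb1*, was low and did not pass, at 4.16 ± 1.11 CPM in NPC and 3.73 ± 1.27 in NPC+.

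Of the 19 semaphorins tested 6 were higher in NPC+ and 2 were lower. *Sema3a*, the secreted semaphorin that collapses growth cones through neuropilin-1, was at 73.0, 70.5 and 57.0 CPM in NPC and 18.5, 23.1 and 16.5 in NPC+, with every NPC+ library below every NPC library. Its log2 fold change was -1.79 (SE 0.17, adjusted p = 2.82e-06). Its receptor *Nrp1* was at 36.0, 37.7 and 31.7 and 29.5, 33.3 and 39.0 CPM, with overlapping groups (log2 fold change -0.04, adjusted p = 0.827). *Sema4b*, a membrane-bound semaphorin, was the other one that fell, with a log2 fold change of -0.43.

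Secreted *Sema3c* and *Sema3f*, the latter a ligand of neuropilin-2, rose. *Sema3f* went from 3.28, 4.32 and 3.13 to 10.1, 9.42 and 10.01 CPM and *Sema3c* from 4.54, 4.05 and 5.01 to 14.2, 8.17 and 11.2 CPM, both without overlap. Log2 fold changes of 1.46 (SE 0.25, adjusted p = 3.97e-04) and 1.28 (SE 0.35, adjusted p = 0.0106) were fitted. Transmembrane *Sema6a*, the most abundant semaphorin per kb, was at 197, 226 and 216 CPM in NPC and 274, 272 and 263 in NPC+, a small difference that still exceeded the spread between replicates (log2 fold change 0.34 (SE 0.11, adjusted p = 0.0220)). *Sema6c* rose from 0.239, 0.698 and 0.626 to 4.34, 2.20 and 1.67 CPM with 4, 5 and 3 and 15, 14 and 10 counts behind the values, and the genes within 5 Mb of it on chromosome 3 had a median log2 fold change of 1.00 against its own 2.53. *Sema4c* also rose (log2 fold change 0.62, adjusted p = 0.0124), with 7.27% of its exon bases shared with an overlapping gene. The sixth, *Sema6b*, was called at an adjusted p of 0.0983 with overlapping groups and lost the call without NPC replicate 1 or 3 or NPC+ replicate 2 or 3 (adjusted p = 0.163 to 0.366) and in the fit blocked by replicate number (adjusted p = 0.126).

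Plexins divided, with 3 higher and 4 lower of the 11 plexins and neuropilins. *Plxnc1*, the receptor of semaphorin 7A, was at 28.2, 36.3 and 30.1 CPM in NPC and 9.26, 10.4 and 10.51 in NPC+. *Plxna4*, which carries signals of class 3 and class 6 semaphorins, was at 0.477, 0.977 and 0.835 and 3.76, 4.71 and 3.503 CPM. The groups did not overlap in either gene, and the log2 fold changes were -1.64 (SE 0.17, adjusted p = 4.39e-06) and 2.54 (SE 0.40, adjusted p = 1.91e-04). *Plxnd1*, the receptor of semaphorin 3E, rose by 1.28 on the log2 scale (adjusted p = 6.38e-04), while *Plxna1* (log2 fold change -0.67), *Plxna3* (-0.51) and *Nrp2* (-0.55) fell. *Plxna1* shares 10.7% of its exon bases with an overlapping gene, so its reads are uncertain to that extent. *Plxnb1*, a receptor of semaphorin 4D, had a log2 fold change of 0.56 and lost its call without NPC replicate 1 or NPC+ replicate 2 or 3 (adjusted p = 0.155 to 0.270) and with libraries thinned to equal depth (adjusted p = 0.121). *Plxnb2*, the most abundant member, was at 282, 366 and 313 CPM in NPC and 284, 348 and 321 in NPC+, with overlapping groups (log2 fold change -0.01, adjusted p = 0.989).

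**Figure D3:**
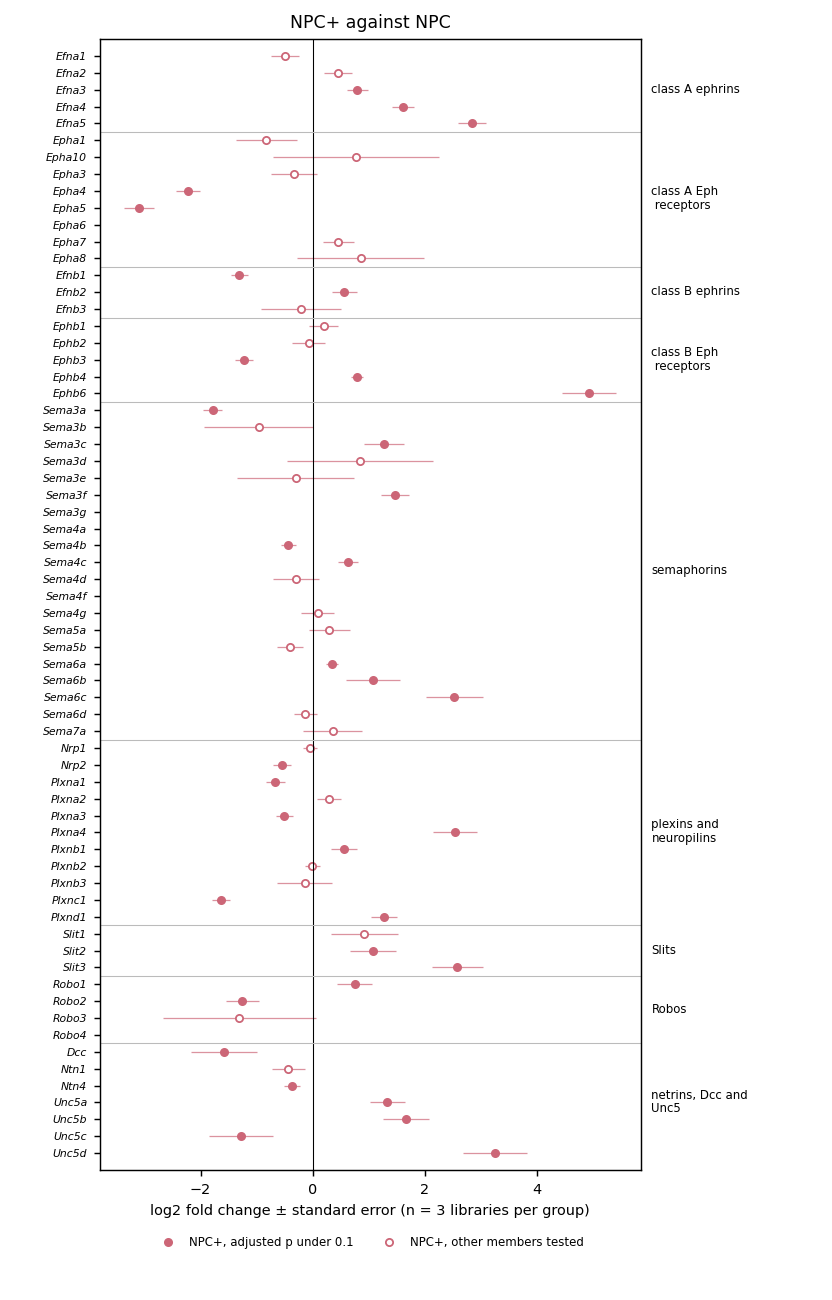
Log2 fold change of NPC+ against NPC with its standard error for each member tested, by family, with filled points at an adjusted p under 0.1 and open points for the others. *Robo4*, *Sema4a* and *Sema4f*, each with 0 to 3 counts in all libraries of NPC together and likewise in NPC+, are left out. The class A receptors *Epha4* and *Epha5* lie far to the left, and *Ephb6* lies farthest to the right.

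Slits were low in glial progenitors, and 2 of the 3 were called higher in NPC+. *Slit3* was at 0.358, 0.977 and 0.209 CPM in NPC, on 6, 7 and 1 counts, and 1.16, 3.45 and 3.67 in NPC+, on 4, 22 and 22 counts, with no overlap and a log2 fold change of 2.58 (SE 0.46, adjusted p = 5.32e-04). *Slit2* was at 2.09, 2.09 and 1.88 and 3.47, 4.87 and 4.34 CPM, again without overlap, with a log2 fold change of 1.08 (SE 0.41, adjusted p = 0.0505). The call of *Slit2* was lost without NPC replicate 1 or 2 or NPC+ replicate 2 or 3 (adjusted p = 0.106 to 0.169). *Slit1* did not pass (log2 fold change 0.92, adjusted p = 0.260).

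The Slit receptors *Robo1* and *Robo2*, neighbours on chromosome 16, moved apart. *Robo2* was at 83.0, 85.1 and 80.1 CPM in NPC and 32.7, 33.8 and 37.5 in NPC+, and *Robo1* at 11.7, 12.4 and 11.7 and 19.7, 23.1 and 17.2 CPM. All NPC+ libraries were below NPC for *Robo2* and above NPC for *Robo1*, with log2 fold changes of -1.25 (SE 0.30, adjusted p = 0.00412) and 0.75 (SE 0.32, adjusted p = 0.0823). The call of *Robo1* was lost without any 1 of the 3 NPC libraries or NPC+ replicate 1 or 2 (adjusted p = 0.122 to 0.249), and with libraries thinned to equal depth (adjusted p = 0.108). Median log2 fold changes of the 6 and 9 expressed genes within 5 Mb were -0.52 for *Robo1* and -0.46 for *Robo2*, and their part in the values of both was not tested.

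In the netrin group 3 genes were higher and 3 lower, and all those that rose were Unc5 receptors. *Unc5d*, a receptor that also binds the adhesion molecule Flrt2, was at 0.298, 0.558 and 0.209 CPM in NPC and 4.34, 3.14 and 3.00 in NPC+, on 5, 4 and 1 and 15, 20 and 18 counts. *Unc5a* was at 4.06, 4.46 and 5.63 and 8.11, 12.9 and 13.0 CPM and *Unc5b* at 1.19, 2.09 and 2.71 and 5.21, 5.02 and 6.84 CPM. In none of these did the groups overlap, and the log2 fold changes were 3.26 (SE 0.57, adjusted p = 4.63e-04), 1.33 (SE 0.31, adjusted p = 0.00376) and 1.66 (SE 0.41, adjusted p = 0.00513). *Dcc*, the attractive netrin receptor, was lower, at 5.97, 6.00 and 3.55 CPM in NPC and 2.03, 1.88 and 1.501 in NPC+, without overlap (log2 fold change -1.58 (SE 0.59, adjusted p = 0.0490)).

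The remaining calls of this group were weak. The call of *Dcc* was lost without NPC replicate 1 or 2 or NPC+ replicate 2 or 3 (adjusted p = 0.102 to 0.147). That of *Ntn4*, a netrin bound to laminin networks, with a log2 fold change of -0.37, was lost without NPC replicate 1 or 2 or NPC+ replicate 1 (adjusted p = 0.127 to 0.277). That of *Unc5c*, with overlapping groups and a log2 fold change of -1.28, was lost without NPC replicate 1 or 3 or any NPC+ replicate (adjusted p = 0.132 to 0.363), with the replicate block (adjusted p = 0.134) and in DESeq2 (adjusted p = 0.132). Expressed genes within 5 Mb of *Unc5c* had a median log2 fold change of -0.76, against -0.05 for all genes expressed. Their part was not tested. *Ntn1* was at 48.9, 59.3 and 59.3 CPM in NPC and 35.3, 39.9 and 47.2 in NPC+, lower in every library but not past the threshold (log2 fold change -0.43, adjusted p = 0.283). It passed in the fit of NPC and NPC+ alone (adjusted p = 0.00654) and with no filter on low counts (adjusted p = 0.00618).

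**Figure D4:**
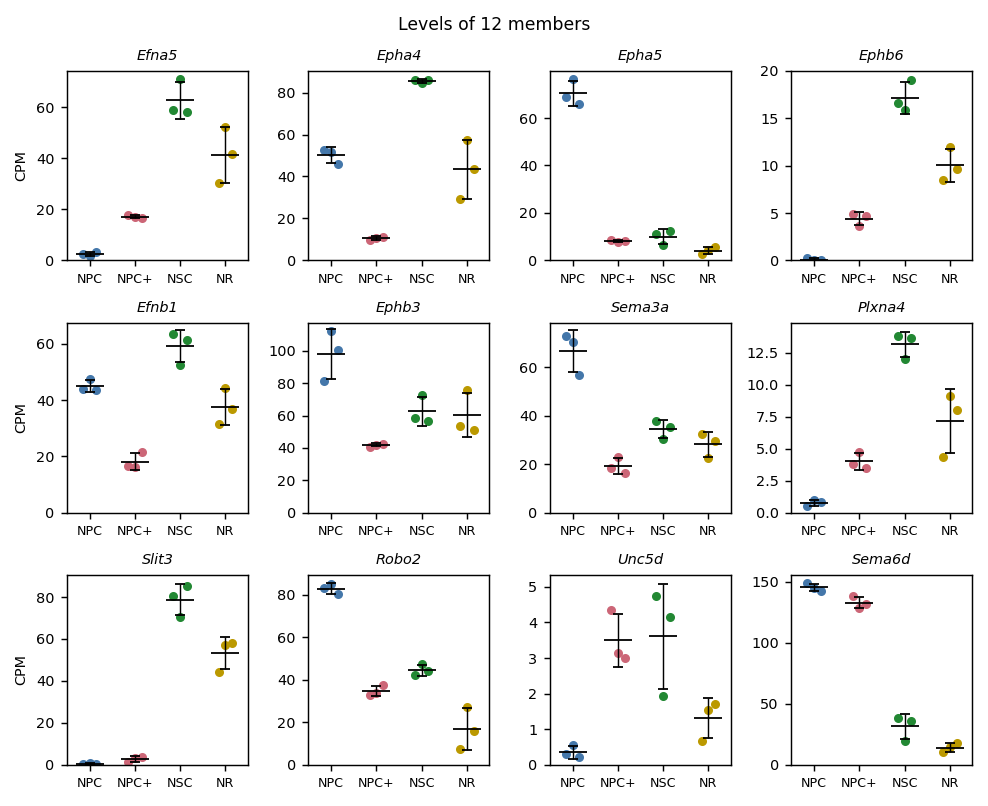
CPM of 12 members in the 4 groups, with 1 point per library, a horizontal bar for the mean of 3 libraries and error bars of 1 SD, each axis starting at 0. *Efna5*, *Ephb6*, *Plxna4*, *Slit3* and *Unc5d* are near 0 in NPC and higher in NPC+, whereas *Epha4*, *Epha5*, *Efnb1*, *Ephb3*, *Sema3a* and *Robo2* are lower in NPC+, and *Sema6d* is high in both.

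The second comparison sets neuroepithelial cells against glial progenitors. In NSC 48 of the 64 members tested were higher than in NPC and 12 were lower, 75.0% and 18.8%, where 44.4% of all genes tested were higher and 33.7% lower. The median log2 fold change of the members was 2.06, or 1.95 with *Robo4* at its lower bound, against 0.20 over all genes tested. The members higher in NSC included all 3 Slits, all 3 class B ephrins, 15 of 19 semaphorins and 6 of 7 class A receptors tested. Of the 11 plexins and neuropilins 5 were higher, 3 were lower and 3 did not pass.

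The largest rises by fitted log2 fold change were those of *Slit3*, *Slit1*, *Ephb6* and *Robo4*. The place of *Robo4* is uncertain, since it had no count in NPC and only a lower bound holds for it. *Slit3* was at 80.5, 70.6 and 85.1 CPM in NSC, against less than 1 CPM in each NPC library, with a log2 fold change of 7.30 (SE 0.31, adjusted p = 1.72e-10). *Slit1* was at 0.835, 0.977 and 0.626 CPM in NPC and 102, 115 and 93.4 in NSC, and *Slit2* at 2.09, 2.09 and 1.88 and 125, 81.4 and 124. No library of NPC came near those of NSC, and the log2 fold changes were 6.94 (SE 0.35, adjusted p = 8.65e-10) and 5.75 (SE 0.29, adjusted p = 9.02e-10).

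Robos rose with the exception of *Robo2*. *Robo3*, which is known for its role at the midline in commissural neurons, was at 0.537, 0.837 and 0.626 CPM in NPC and 81.7, 26.8 and 75.8 in NSC, and *Robo1* was at 148, 52.9 and 102 CPM in NSC. NSC replicate 2 was the lowest of NSC for both, and it also had the lowest sum of mesenchyme and neural crest markers, 550 CPM against 1736 and 1736 in the other NSC libraries. Log2 fold changes were 6.59 (SE 0.54, adjusted p = 1.00e-07) for *Robo3* and 3.08 (SE 0.30, adjusted p = 4.88e-07) for *Robo1*. *Robo2* was at 42.1, 47.3 and 43.9 CPM in NSC, below every NPC library (log2 fold change -0.90 (SE 0.28, adjusted p = 0.00976)).

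*Robo4*, the Robo of endothelial cells, had no count in any NPC library and 45, 7 and 32 counts, or 1.01, 0.242 and 0.975 CPM, in NSC. Against a floor of 3 counts in each NPC library this was at least 1.82-fold higher (adjusted p = 0.00468). Endothelial markers summed to 0.417 to 1.91 CPM in NPC and 7.25 to 11.1 in NSC, where *Cdh5*, a defining one, was at 0.246, 0.242 and 0.671 CPM.

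Ephrins and their receptors were mostly higher in NSC. *Efnb2* was at 13.4, 18.1 and 17.9 CPM in NPC and 277, 224 and 275 in NSC, which made it the highest of the ephrins and Eph receptors per kb of exon in NSC, at 37.7 ± 4.37 CPM per kb. *Efnb3* was at 0.656, 0.279 and 0.835 and 44.4, 37.9 and 40.6 CPM. The groups were far apart for both, with log2 fold changes of 4.01 (SE 0.20, adjusted p = 8.94e-10) and 6.11 (SE 0.37, adjusted p = 4.41e-09). *Efna5* was at 59.2, 71.0 and 58.1 CPM in NSC, *Ephb6* at 16.6, 15.8 and 19.1 and *Ephb2* at 53.4, 44.0 and 48.2. The values of NPC given above were all far lower, and the log2 fold changes were 4.72, 6.92 and 3.60.

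Class A receptors split within NSC. *Epha7* went from 12.2, 12.6 and 12.7 CPM in NPC to 129.8, 171 and 144 in NSC and *Epha3* from 6.09, 5.30 and 4.38 to 57.8, 23.6 and 60.7, with log2 fold changes of 3.57 and 3.13 and no overlap. *Epha5* alone among them was lower, at 11.3, 6.39 and 12.3 CPM in NSC, with a log2 fold change of -2.82 (SE 0.24, adjusted p = 1.15e-07). *Epha4* was at 86.2, 84.5 and 86.2 CPM in NSC, above every NPC library (log2 fold change 0.77 (SE 0.17, adjusted p = 0.00122)). Among the others that were lower in NSC were *Efna1* (log2 fold change -1.31) and *Ephb3* (-0.65). The call of *Epha1*, at 1.71 ± 0.690 CPM in NPC and 2.95 ± 0.567 in NSC with overlapping groups, was lost without NPC replicate 1 or 2 or NSC replicate 1 (adjusted p = 0.113 to 0.209). That of *Efnb1* (log2 fold change 0.39) was lost after thinning to equal depth (adjusted p = 0.423).

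The 4 semaphorins lower in NSC were *Sema4b*, *Sema6d*, *Sema3a* and *Sema6a*. *Sema6d*, a transmembrane ligand of class A plexins, was at 149, 145 and 143 CPM in NPC and 38.7, 19.8 and 35.8 in NSC. *Sema4b* was at 48.1, 50.6 and 55.5 and 9.78, 8.15 and 8.66 CPM. Both were lower in every NSC library, with log2 fold changes of -2.21 (SE 0.21, adjusted p = 4.96e-07) and -2.53 (SE 0.13, adjusted p = 1.17e-09). *Sema6a* and *Sema3a* fell by less, with log2 fold changes of -0.88 and -0.96.

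The other secreted class 3 semaphorins tested, *Sema3b* to *Sema3f*, were higher. *Sema3f* reached 38.7, 56.0 and 40.5 CPM in NSC, *Sema3c* 34.4, 68.7 and 35.8 and *Sema3e* 12.0, 27.1 and 13.7, with *Sema3e* under 1 CPM in each NPC library. NSC replicate 2 was the highest of NSC for all 3. These gave log2 fold changes of 3.66, 3.36 and 5.47. *Sema4a* and *Sema4f* had 2 and 3 counts in all NPC libraries together, and their ratios in NSC were 28.9 (95% interval of counting error 7.89 to 239.8) and 34.3 (11.6 to 167).

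Plexins and neuropilins were mixed. *Plxnb3*, a receptor of semaphorin 5A, was at 2.63, 5.02 and 3.55 CPM in NPC and 0.134, 0.0345 and 0 in NSC, close to absent in NSC despite its depth, with a log2 fold change of -5.70 (SE 0.63, adjusted p = 1.98e-06). *Plxna1* rose from 52.6, 58.3 and 49.7 to 179, 113 and 133 CPM and *Plxnb1* from 24.3, 35.3 and 36.1 to 176, 92.2 and 136 CPM, with log2 fold changes of 1.41 and 2.11. The exon bases that *Plxna1* shares with an overlapping gene leave its reads uncertain here too. *Nrp1* was at 91.7, 84.4 and 101 CPM in NSC, above every NPC library (log2 fold change 1.39 (SE 0.12, adjusted p = 1.29e-07)). The 33 expressed genes within 5 Mb of *Nrp1* had a median log2 fold change of 0.86, against 0.005 for all genes expressed. The part of this regional shift in its value was not tested. *Plxnb2*, *Plxna2* and *Nrp2* did not pass, with log2 fold changes of -0.22, 0.35 and -0.28. *Plxnb2* passed without NPC replicate 1 or NSC replicate 1 (adjusted p = 0.0692 and 0.0502), *Nrp2* without the same libraries (0.00521 and 0.0976) and *Plxna2* without NSC replicate 2 (0.0256).

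In the netrin group 6 of 7 were higher in NSC. *Ntn1*, the attractant of commissural axons, was at 234, 171 and 173 CPM in NSC and its receptor *Dcc* at 24.3, 8.60 and 26.2, both above every NPC library. Their log2 fold changes were 1.79 (SE 0.28, adjusted p = 5.29e-05) and 1.89 (SE 0.43, adjusted p = 0.00141). *Ntn4* was lower, at 43.0, 48.6 and 43.2 CPM in NPC and 28.3, 22.8 and 31.0 in NSC (log2 fold change -0.71 (SE 0.14, adjusted p = 4.87e-04)).

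The libraries labelled NR were compared with the same NPC libraries. In them 39 of the 64 members were higher and 15 lower, 60.9% and 23.4%, where 45.6% and 34.1% of all genes tested were higher and lower. The median log2 fold change was 1.67 over the members and 0.19 over all genes tested. Without the first NR library the numbers were 42 and 14, with *Ntn1* (adjusted p = 0.00863), *Sema4c* (0.0292) and *Sema4g* (0.0995) added among the higher members and *Efnb1* (0.202) lost from the lower ones.

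**Figure D5:**
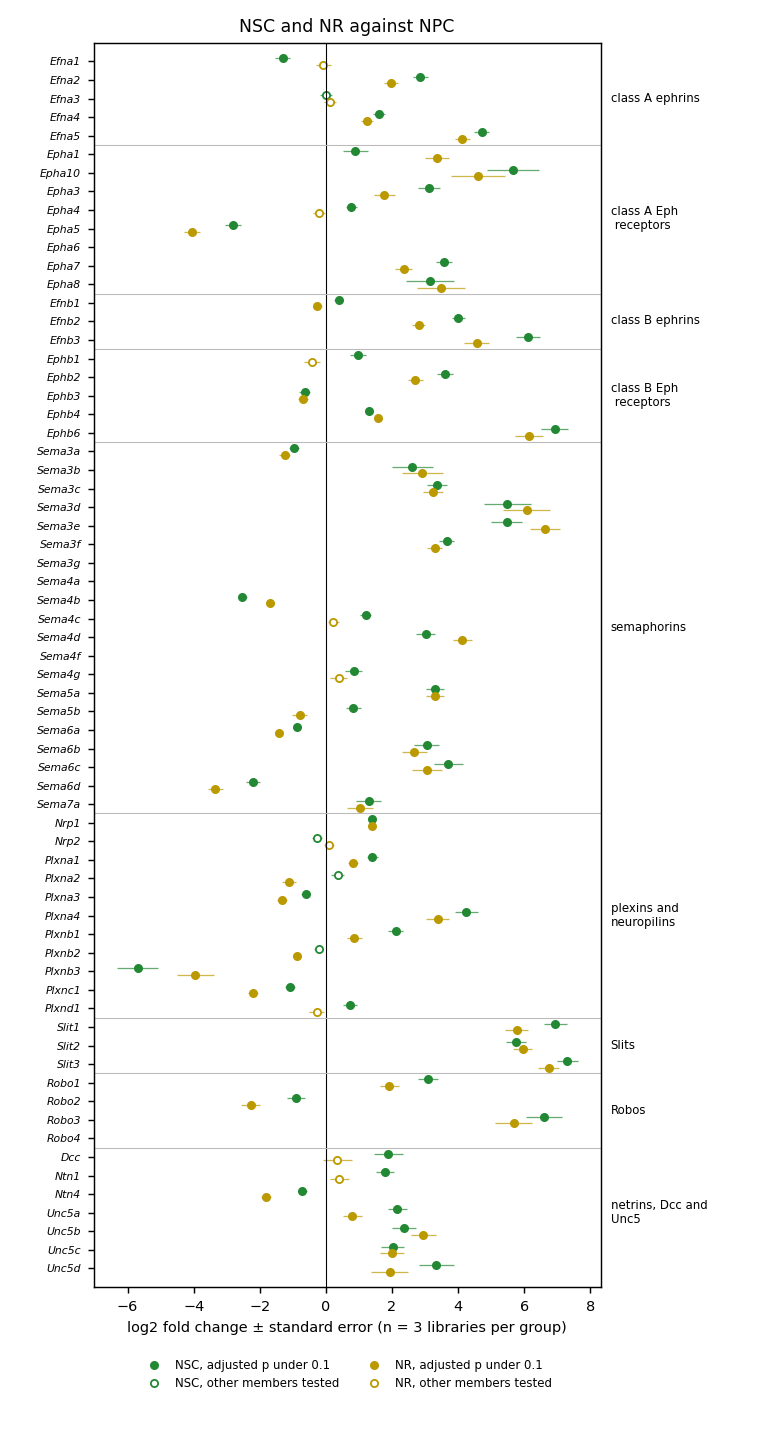
Log2 fold changes of NSC (green) and of the libraries labelled NR (yellow) against the same 3 NPC libraries, with standard errors, by family, where filled points have an adjusted p under 0.1. Both comparisons share NPC, and *Robo4*, *Sema4a* and *Sema4f*, with 0 to 3 counts in NPC, are left out. Slits and *Ephb6* lie far to the right and *Epha5*, *Sema6d* and *Plxnb3* to the left in both.

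The largest rises in NR by fitted log2 fold change were those of *Robo4*, *Slit3*, *Sema3e* and *Ephb6*. With no count of *Robo4* in NPC, its place in this order is uncertain. *Robo4* was at 10.53, 2.90 and 6.52 CPM in NR, at least 16.3-fold above the floor of 3 counts in each NPC library (adjusted p = 2.34e-05), where 4 endothelial markers summed to 74.8 to 133 CPM. Most of that sum was *Pecam1*, at 122, 65.8 and 86.1 CPM. The other markers were low, with *Cdh5* at 1.54, 0.807 and 1.18, *Kdr* at 1.91, 2.65 and 2.33 and *Tek* at 7.27, 5.58 and 6.13. Whether these libraries held endothelial cells was not tested. *Slit3* was at 44.5, 57.3 and 58.1 CPM, *Sema3e*, a secreted ligand of Plxnd1, at 43.4, 43.2 and 31.0 and *Ephb6* at 8.498, 11.9 and 9.67. All NR libraries were above all NPC libraries in these genes, with log2 fold changes of 6.74 (SE 0.31, adjusted p = 3.58e-10), 6.63 (SE 0.47, adjusted p = 1.90e-08) and 6.14 (SE 0.41, adjusted p = 1.23e-08). *Slit2* at 101, 175 and 105 CPM and *Slit1* at 30.0, 67.6 and 39.2 CPM had log2 fold changes of 5.95 and 5.77. *Sema4a* and *Sema4f* were 65.0 (17.9 to 539) and 35.6 (12.1 to 174) times their level in NPC, with 95% intervals of counting error.

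The largest falls in NR were those of *Epha5*, *Plxnb3*, *Sema6d* and *Robo2*. *Epha5* was at 2.77, 4.16 and 5.48 CPM, *Sema6d* at 10.2, 14.7 and 17.5, *Robo2* at 7.57, 27.0 and 15.8 and *Plxnb3* at 0.493, 0.161 and 0.140. Every NR library was below every NPC library in all 4, with log2 fold changes of -4.05 (SE 0.25, adjusted p = 6.03e-09), -3.35 (SE 0.23, adjusted p = 1.30e-08), -2.28 (SE 0.29, adjusted p = 7.24e-06) and -3.95 (SE 0.56, adjusted p = 2.07e-05). Without the first NR library, the lowest for *Robo2*, its log2 fold change was -1.99. *Plxnc1* (log2 fold change -2.22) and *Ntn4* (-1.80) were also lower.

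Some members at an intermediate level did not pass in NR or passed only just. *Epha4* was at 29.4, 57.5 and 43.4 CPM in NR, a range that holds the NPC values (log2 fold change -0.21, adjusted p = 0.290), and it passed as lower without NR replicate 2 (adjusted p = 0.00826). *Ephb1* was at 37.3, 36.4 and 40.1 CPM in NPC and 16.4, 30.7 and 36.1 in NR, lower in every library but with an adjusted p of 0.119. It passed with the replicate block (adjusted p = 0.0751) and without NR replicate 3 (adjusted p = 0.0240). The call of *Efnb1* (log2 fold change -0.26) was lost without any 1 of the NPC libraries or NR replicate 1 or 3 (adjusted p = 0.113 to 0.202) and in DESeq2 (adjusted p = 0.206). The call of *Unc5a* was lost without NPC replicate 1 or NR replicate 2 (adjusted p = 0.122 and 0.117) and that of *Sema7a* without NPC replicate 1 (adjusted p = 0.273).

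Directly against NSC, the libraries labelled NR were lower for 38 of the 64 members and higher for 10, 59.4% and 15.6%, where 26.6% and 30.0% of all genes tested were lower and higher. The median log2 fold change was -0.62 over the members and 0.01 over all genes tested. Without the first NR library 35 were lower and 8 higher. Among the 19 semaphorins tested 6 were lower, near the share of all genes, while 4 were higher and 9 did not pass. By role, 8 of 11 plexins and neuropilins, all 3 class B ephrins, 5 of 7 class A receptors and 5 of 7 of the netrin group were lower. Markers of neuroepithelium were lower as well, all 6 of 6, and those of neurons, 6 of 7 with a median log2 fold change of -0.88, while those of pluripotent cells were higher, all 5 of 5. Their part in the members' differences was not tested.

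*Sema5b*, a transmembrane semaphorin with thrombospondin repeats, had the largest fall, from 164, 128 and 164 CPM in NSC to 28.0, 62.3 and 57.3 in NR. *Efnb3* went from 44.4, 37.9 and 40.6 to 8.44, 19.4 and 13.8 CPM, *Plxna2* from 128, 78.6 and 116 to 25.5, 50.9 and 40.5 and *Ephb1* from 87.2, 50.9 and 85.3 to 16.4, 30.7 and 36.1. The groups did not overlap, and the first NR library was the lowest of NR in all 4. The log2 fold changes were -1.62 (SE 0.22, adjusted p = 6.27e-05), -1.55 (SE 0.24, adjusted p = 1.39e-04), -1.46 (SE 0.21, adjusted p = 9.01e-05) and -1.41 (SE 0.24, adjusted p = 2.86e-04). Without that library they were -1.35, -1.31, -1.24 and -1.16, with adjusted p of 4.98e-06, 1.05e-04, 8.22e-05 and 2.16e-04.

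*Ntn1* and *Slit1*, abundant secreted cues in NSC, were also lower in NR, at 39.8, 114 and 66.5 CPM for *Ntn1* and 30.0, 67.6 and 39.2 for *Slit1*. Both ranges lay below NSC, with log2 fold changes of -1.39 (SE 0.27, adjusted p = 8.15e-04) and -1.17 (SE 0.22, adjusted p = 5.66e-04). *Slit2*, in contrast, overlapped between NR and NSC (log2 fold change 0.21, adjusted p = 0.400), as did *Nrp1* (0.02, adjusted p = 0.912). Neither result shows that the levels are equal.

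The largest rises in NR were those of *Robo4*, *Epha1*, *Plxnb3* and *Efna1*. *Epha1*, an Eph receptor best known from epithelia, was at 3.40, 2.31 and 3.14 CPM in NSC and 24.6, 10.2 and 14.9 in NR, and *Robo4* at 1.01, 0.242 and 0.975 and 10.53, 2.90 and 6.52. *Efna1* was at 2.89, 2.56 and 2.74 and 6.96, 6.94 and 5.45 CPM. The groups did not overlap in any of them, and the log2 fold changes were 2.47 (SE 0.31, adjusted p = 3.68e-05), 3.11 (SE 0.53, adjusted p = 5.00e-04) and 1.23 (SE 0.22, adjusted p = 4.24e-04). For *Epha1* and *Robo4* the first NR library was the highest, and without it the log2 fold changes were 2.08 and 2.63. *Epha1* shares 6.01% of its exon bases with *Zyx*, so its reads are uncertain to that extent.

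The rise of *Plxnb3*, at 0.134, 0.0345 and 0 CPM in NSC on 6, 1 and 0 counts and 0.493, 0.161 and 0.140 in NR on 8, 5 and 5 counts, was weak (log2 fold change 1.75 (SE 0.78, adjusted p = 0.0777)). It was lost without NR replicate 1 or NSC replicate 2 or 3 (adjusted p = 0.160 to 0.281) and with the replicate block (adjusted p = 0.102). With the block *Unc5b* (log2 fold change 0.64, adjusted p = 0.0366) and *Sema4g* (-0.45, adjusted p = 0.0899) passed, where the unblocked adjusted p were 0.107 and 0.114. The lower calls of *Robo3*, *Efna4*, *Sema3f*, *Sema6c* and *Epha10* and the higher call of *Nrp2* were each lost without at least 1 library. *Robo3* was lost without NSC replicate 1 or 3 (adjusted p = 0.138 and 0.115), *Efna4* and *Sema3f* without NSC replicate 2 or NR replicate 1 or 3 (0.202 to 0.284 and 0.268 to 0.357), *Sema6c* without NSC replicate 1 or 3 or NR replicate 1 or 3 (0.101 to 0.237), *Epha10* without NSC replicate 1 or 3 or NR replicate 1 (0.156 to 0.223) and *Nrp2* without NSC replicate 2 or 3 or NR replicate 1 (0.128 to 0.155). In the other direction *Sema3a* passed as lower without NSC replicate 2 or NR replicate 1 (adjusted p = 0.0493 and 0.0535), and *Sema3b* as higher without NSC replicate 2 (0.0123), which held 3.78, 13.7 and 3.596 CPM in the order of the NSC replicates.

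Intracellular effectors and adhesion molecules of guidance pathways were taken as a list of 46 genes. In NPC+ 18 were higher than in NPC and 10 lower, 39.1% and 21.7%, where 21.6% and 22.7% of all genes were, and the median log2 fold change of the list was 0.23. *Mical2*, an oxidase that disassembles actin filaments, was at 1.49, 1.67 and 1.46 CPM in NPC and 7.53, 7.85 and 11.3 in NPC+, and *Nrcam*, a cell adhesion molecule and part of semaphorin receptor complexes, at 113, 123 and 111 and 37.3, 38.8 and 33.5. These were the largest rise and the largest fall, without overlap, with log2 fold changes of 2.54 (SE 0.40, adjusted p = 1.95e-04) and -1.66 (SE 0.22, adjusted p = 4.18e-05).

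Against NPC, 27 effectors were higher and 16 lower in NSC and 20 higher and 16 lower in NR, and against NSC 4 were higher and 27 lower in NR. These were 58.7% and 34.8%, 43.5% and 34.8%, and 8.70% and 58.7%, where 44.4% and 33.7%, 45.6% and 34.1%, and 30.0% and 26.6% of all genes were higher and lower, so in NR against NPC the shares were close to those of all genes. *Mical1*, which acts downstream of plexins, had the largest rise in both, from 0.358, 0.279 and 0.835 CPM in NPC to 57.0, 65.4 and 59.5 in NSC and 63.9, 71.8 and 59.7 in NR. *Chl1*, an adhesion molecule that serves as a co-receptor of semaphorin 3A, had the largest fall in both, from 152, 148 and 127 CPM to 9.04, 6.04 and 11.03 and 2.52, 4.48 and 5.54. The log2 fold changes in NSC were 7.15 (SE 0.22, adjusted p = 1.09e-11) and -4.03 (SE 0.22, adjusted p = 1.67e-09), and in NR they were 7.25 and -5.03. In NR against NSC the extremes were *Rnd1* (log2 fold change 0.95) and *Nrcam* (-1.53).

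Of 16 other cues and receptors 14 were tested, and 4 were higher and 5 lower in NPC+, 11 higher and 2 lower in NSC and 10 higher and 2 lower in NR, each against NPC, and 4 higher and 5 lower in NR against NSC. As shares these were 28.6% and 35.7% in NPC+ (all genes 21.6% and 22.7%), 78.6% and 14.3% in NSC (44.4% and 33.7%), 71.4% and 14.3% in NR (45.6% and 34.1%), and 28.6% and 35.7% in NR against NSC (30.0% and 26.6%). *Rgmb*, a ligand of neogenin, rose most in NPC+, from 32.3, 35.7 and 30.7 to 67.2, 73.5 and 67.9 CPM, and *Dscaml1*, an adhesion receptor, fell most, from 1.43, 2.37 and 3.13 to 0.579, 0.314 and 0.5004 CPM. Neither pair of groups overlapped, and the log2 fold changes were 1.08 (SE 0.19, adjusted p = 5.69e-04) and -2.26 (SE 0.48, adjusted p = 0.00202). *Cxcl12*, a secreted chemokine that guides migrating neural cells, had the largest rise in NSC (log2 fold change 5.75) and in NR (6.54), and *Draxin*, a secreted repellent that binds Dcc, the largest fall (-1.65 and -2.61). In NR against NSC the extremes were *Dscaml1* (log2 fold change 0.94) and *Cxcr4*, the receptor of Cxcl12 (-1.65).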

How the data were processed

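Reads were counted per gene by the authors, and the 12 columns of counts they deposited are raw counts without normalization, of which 0 columns were left out. The submitters' processing notes name STAR 2.6, RSEM 1.1.14 and mm10, without their roles, and the strand setting is not given in the sources used here, so reads of overlapping genes cannot be assigned. RNA was amplified by SMART-Seq, whose counts are not independent molecules. Symbols, positions and exon lengths came from GENCODE M21 (GRCm38) and promoters from RefSeq. No symbol was found for 563 genes (0.124% of counts).

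Counts were tested in edgeR 4.0.16 (R 4.3.3, limma 3.58.1) by two-sided glmQLFTest over all 12 libraries, with TMM scaling, filterByExpr and no block. Members were called at a Benjamini-Hochberg adjusted p under 0.1 over all 17003 genes tested. Standard errors were obtained from each log2 fold change and its F statistic. CPM use TMM library sizes. Sample groups and replicate numbers follow the titles in the labels. The replicates were made on different days, and p-values measure the spread between them. That spread was estimated over all 4 groups together, so the p-values of NPC+ against NPC also carry the spread within NSC and NR. The fit of NPC and NPC+ alone does not. Where all libraries of a group were at 0, a bound against 3 counts in each library is given, and intervals cover counting error only.

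Members named with values included the 2 highest per kb in each family and 5 classical pairs. They also included the 4 largest rises and falls by fitted log2 fold change per comparison, among members called whose groups do not overlap. Values of other members were given as well, without a fixed rule. The members, gene lists and tests were chosen with earlier results of these data known. On simulated counts of 17003 genes for NPC+ against NPC, the test called 65.5% of 58 genes changed by 1 on the log2 scale, 83.6% of 67 at 2, 95.5% of 66 at 3 and 12 of 15992 unchanged genes. The simulation changed only these few genes, and in NPC+ alone, whereas 92.5% of the genes tested differed among the 4 groups. Its rates may therefore not hold for the data.

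Same-numbered NR and NSC libraries deviated together (correlations 0.229 to 0.49 in all 3 pairs), and by this hint from the data they were taken as paired, although NR 3 with NSC 1 (0.300) and NR 1 with NSC 3 (0.186) also correlated, so blocked values stand beside the results whose call they change. In the other comparisons the correlations were -0.0472 to 0.0475. Alternatives were DESeq2 1.42.0, other scalings and filters, the block, only the groups compared, equal depth, other thresholds, other exon lengths and the omission of each library.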

Additional observations from a re-analysis of the deposited data

How the results depend on the processing

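No member changed direction with a call on both sides under any alternative. Without 1 library at a time the members called higher and lower were 16 to 19 and 11 to 13 in NPC+ against NPC, 46 to 49 and 12 to 14 in NSC against NPC, 37 to 42 and 14 to 16 in NR against NPC, and 8 to 11 and 35 to 39 in NR against NSC. *Sox1* kept its direction and its side of the threshold in all 4 comparisons. In the fit with a replicate block the counts were 20 and 13, 48 and 12, 39 and 16, and 10 and 39, and beyond the calls given in the report the block, or pairing, changed no other call of a member. In the fit of NPC and NPC+ alone *Ephb1*, *Plxna2* and *Sema5b* also passed (adjusted p = 0.0285, 0.00106 and 0.00324), the last as lower, and *Plxna2* and *Sema5b* with no filter on low counts (0.0748 and 0.00821), where *Ntn1* also passed in NR against NPC (8.17e-04). At a fold change over 4 in place of the p threshold alone, 6 members were higher and 2 lower in NPC+, 33 higher and 4 lower in NSC and 27 higher and 5 lower in NR against NPC, and 2 higher and 0 lower in NR against NSC, fewer by construction.

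With the longest transcript in place of all exon bases, summed CPM per kb in NPC, NPC+, NSC and NR became 11.3, 6.74, 31.0 and 15.8 for Robos, 0.444, 1.23, 44.4 and 31.0 for Slits, 20.9, 6.53, 48.2 and 26.4 for class A receptors, 34.9, 29.6, 52.2 and 40.9 for class B receptors, 96.4, 91.1, 123 and 83.1 for plexins and neuropilins, and 110.2, 109.5, 125 and 89.2 for semaphorins. For class B ephrins it became 17.5, 10.7 and 85.0 in the first 3 groups. The length alone differs. Depth limits members below about 1 CPM in NPC and NPC+, where 3 counts correspond to 0.163 to 0.881 CPM.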
